A study of Mus musculus with 6 samples.

Results

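The desmosome genes were examined in mouse embryonic stem cells kept alive by a POUV protein of another species or by mouse OCT4. The set holds 9 genes: Dsp, Dsg2, Dsc2, Pkp1, Pkp2, Pkp3, Pkp4, Jup and Perp. Members were chosen by name, as the array probes whose RefSeq transcript maps to 1 of these symbols. All 9, of 20972 genes named on the array, had a probe, with 11 probes in all among the 55681 non-control probes of the array, and Dsp and Dsg2 had 2 probes each. The 8 genes other than Pkp1 passed the filter on dim probes and were tested among 14595 genes.

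The line was ZHBTc4, mouse embryonic stem cells whose resident Oct4 is shut off by tetracycline, which every group received. In each of the 3 groups the line had received a pCAG-IP plasmid, in which the CAG promoter drives the rescuing factor. It grew in serum and LIF with tetracycline (2 µg/mL), and with puromycin (1 µg/mL) from day 2, and colonies were picked on day 9. Clones 1 and 2 of the mOct4 group carried the mouse factor. The coelacanth factors were LcPOU5F1, in clones 4 and 5, and LcPOU5F3, in clones 1 and 2 of its own group. Each clone was grown from 1 picked colony and read on 1 array, so n = 2 clones in every group. The p-values rest on the spread between picked clones of a group, pooled over the 3 groups. That spread includes the labelling and hybridisation of separate arrays. No sample without a rescuing factor was analysed here.

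Desmosomes are spot-like junctions that fasten the keratin filaments of neighbouring epithelial cells to each other. The desmosomal cadherins, the desmogleins (Dsg) and desmocollins (Dsc), reach across the gap between cells. Inside the cell, plakoglobin (Jup) and the plakophilins (Pkp) bind the cadherin tails, and desmoplakin (Dsp) links this plaque to the keratins. Perp is a membrane protein with several membrane-spanning segments that desmosomes need in stratified epithelia, and its gene is a target of p53 and p63. In the early mouse embryo, desmosomes first form in the trophectoderm, the outer epithelium of the blastocyst.

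Levels are log2 processed signals minus the 75th percentile of the same array, so a level of 0 equals that percentile. A level belongs to its probe, and levels of different genes were not set against each other. The share of probes well above background ran from 43.5% to 57.8% over the 6 arrays, with no saturated spot. Slide 1 held 5 of the arrays and slide 2 held mOct4 clone 2. Of 10 embryonic stem cell markers, 10 were well above background in both mOct4 clones and 9, all but Pou5f1, in each other clone. Their summed level, in multiples of the 75th percentile, was 443 to 467 in mOct4, 455 to 491 in LcPOU5F1 and 72.5 to 142 in LcPOU5F3. This sum includes Pou5f1, the gene of mouse OCT4, which only the mOct4 clones received as the rescuing factor. The summed level of 11 trophectoderm markers was 26.4 to 27.8 in mOct4, 15.3 to 17.7 in LcPOU5F1 and 58.5 to 60.6 in LcPOU5F3, with Elf5 not well above background on any array. Summed levels of 8 fibroblast markers were 2.09 to 2.37, 1.29 and 4.53 to 5.31 in the same order of groups, and those of 8 primitive endoderm markers 1.81 to 2.09, 1.34 to 2.03 and 2.39 to 3.64. For 8 stratified epithelium markers the sums were 6.04 to 6.51, 6.80 to 6.85 and 6.15 to 6.72, and for 5 neural markers 10.0 to 11.6, 9.88 to 12.3 and 2.68 to 2.77. Lum, Postn, Pdgfra, Ivl, Krt1 and Krt15 of these lists were not well above background on any array. The part of other cell types in the results was not tested. In such bulk RNA, more cells of a type and more RNA per cell cannot be told apart.

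With coelacanth POU5F3, 5 of the 8 tested desmosome genes were higher than with mouse OCT4 and 1 was lower, by limma at an adjusted p under 0.05. Perp, Dsc2 and Dsp rose by 32.5-fold, 20.6-fold and 15.6-fold, Pkp2 and Dsg2 by 3.78-fold and 2.40-fold, and Pkp4 fell 1.79-fold. Among all genes tested, 11.8% were called higher and 11.7% lower in this comparison. The clones of both groups did not overlap for any of the 8 genes, against 68.4% of all genes. The median log2 difference was 1.59 over the 8 genes and -0.09 over all genes.

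**Figure D1:**
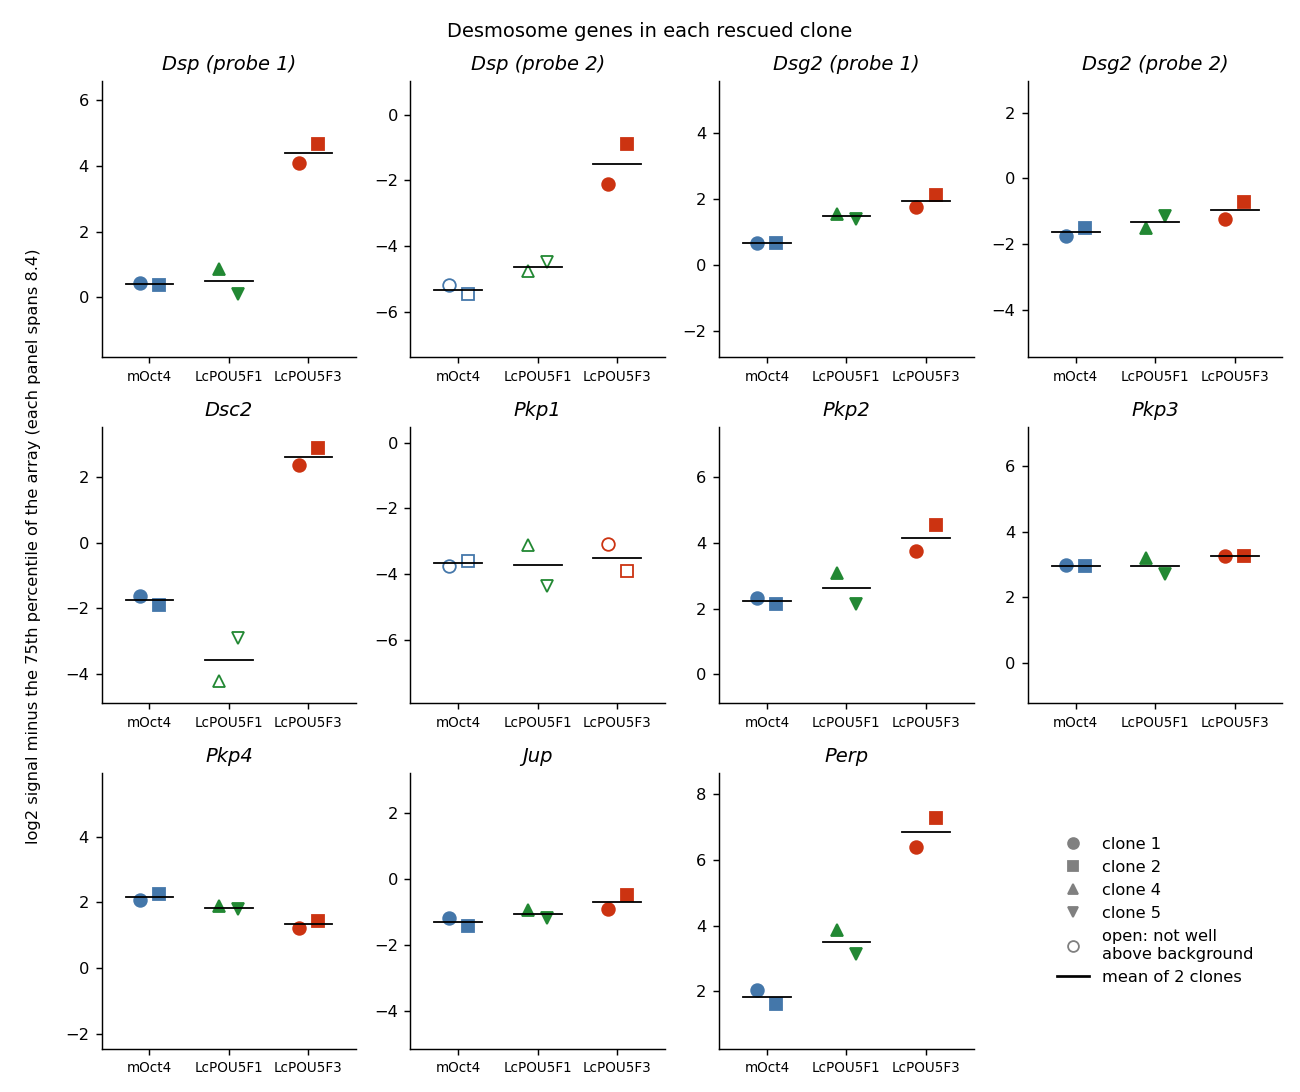
Each panel shows 1 probe of a desmosome gene, with the log2 signal minus the 75th percentile of the array on the y axis and the 3 groups on the x axis. A point is 1 clone (its shape gives the clone number, open where the probe was not well above background) and a line is the mean of 2 clones. Both LcPOU5F3 clones lie above all others for both Dsp probes, the first Dsg2 probe, Dsc2, Pkp2, Pkp3, Jup and Perp, though only narrowly for Pkp3 and Jup. They lie below all others for Pkp4, and the Pkp1 points are all open.

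Among the cadherins, Dsc2, a desmocollin found in simple epithelia, was at -1.63 and -1.88 in the mOct4 clones. It was at 2.36 and 2.87 in the LcPOU5F3 clones and at -4.22 and -2.90 in the LcPOU5F1 clones, where neither array was well above background. The 3 groups did not overlap. Dsc2 was higher in LcPOU5F3 than in mOct4 by 4.37 ± 0.47 on the log2 scale (SE, limma, adjusted p = 0.00812). Against LcPOU5F1, LcPOU5F3 was at least 40.6-fold higher (limma adjusted p = 0.00537). That bound sets the brighter mean against the higher of the probe's own signal and the lowest signal well above background on each dim array. With normexp background correction the measured log2 difference between the coelacanth groups was -3.97 in place of -6.17. That is smaller than the bound, which holds only for the processing used here. The mOct4 clones stood at least 1.97-fold above the LcPOU5F1 clones, a difference that did not pass (limma adjusted p = 0.219). With normexp the log2 difference of LcPOU5F1 from mOct4 was -0.53, also smaller than its bound.

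Dsg2, the desmoglein of simple epithelia, was at 0.67 and 0.68 in mOct4, 1.54 and 1.41 in LcPOU5F1, and 1.77 and 2.12 in LcPOU5F3. The order was the same for both clones of each group, with no overlap. LcPOU5F3 was above mOct4 by 1.27 ± 0.18 (limma adjusted p = 0.0129), while LcPOU5F1 stood 0.80 ± 0.18 above mOct4 without passing (adjusted p = 0.181). A second Dsg2 probe gave a smaller difference between LcPOU5F3 and mOct4, 0.67 ± 0.26, which did not pass when every kept probe was tested (limma adjusted p = 0.145). With the mean of both probes Dsg2 was higher by 0.97 and was called (limma adjusted p = 0.0275).

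Dsp, the plaque protein that holds keratin filaments, was at 0.45 and 0.38 in mOct4, 0.87 and 0.10 in LcPOU5F1, and 4.10 and 4.66 in LcPOU5F3. The LcPOU5F1 clones lay on both sides of the mOct4 clones, and both LcPOU5F3 clones were far above. The difference between LcPOU5F3 and mOct4 was 3.96 ± 0.33 (limma adjusted p = 0.00576). The second Dsp probe, well above background only in the LcPOU5F3 clones (-2.10 and -0.89), was at least 4.69-fold higher there than in mOct4. It passed the filter on dim probes only through those clones, so this is a description and no separate support for the first probe.

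The first Dsp probe was printed on 10 spots of each array, which gives the error of printing and reading a spot, but not that of labelling or hybridisation. After flagged spots were left out, 8 to 10 spots per array remained, and their SD lay between 0.03 and 0.10 on the log2 scale. The LcPOU5F1 clones differed by 0.77 and the LcPOU5F3 clones by 0.56, while the mOct4 clones differed by 0.07. These clone differences hold the labelling and hybridisation of separate arrays as well as the difference between clones.

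**Figure D2:**
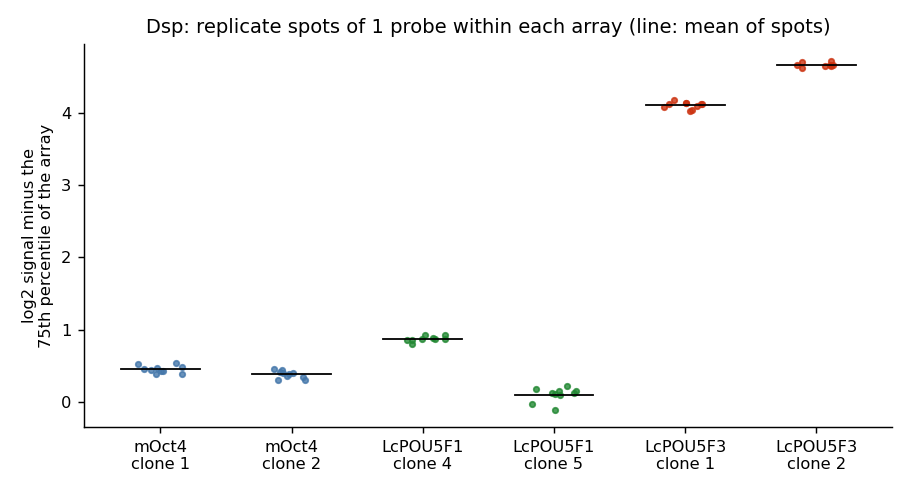
The points are the replicate spots of the first Dsp probe on each of the 6 arrays (x axis), with the log2 signal minus the 75th percentile on the y axis and a line at the mean of the spots. Spots of 1 array lie close together, with the widest array, LcPOU5F1 clone 5, running from -0.11 to 0.21, and the LcPOU5F3 clones lie above 4.

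The plakophilins, armadillo-repeat proteins that cluster the plaque, did not move alike. Pkp2, the plakophilin of simple epithelia and heart, was at 2.32 and 2.13 in mOct4, 3.10 and 2.13 in LcPOU5F1, and 3.75 and 4.53 in LcPOU5F3. Both LcPOU5F3 clones were above all others, and LcPOU5F1 clone 5 lay between the mOct4 clones. Pkp2 was higher in LcPOU5F3 than in mOct4 by 1.92 ± 0.41 (limma adjusted p = 0.0317), a call that was lost without LcPOU5F3 clone 2 (adjusted p = 0.0716).

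Pkp4, a plakophilin of the p120-catenin branch that is found at adherens junctions as well as desmosomes, was at 2.08 and 2.27 in mOct4, 1.89 and 1.80 in LcPOU5F1, and 1.23 and 1.44 in LcPOU5F3. It was lowest in both LcPOU5F3 clones, the opposite order from Dsp and Pkp2. The difference from mOct4 was -0.84 ± 0.16 (limma adjusted p = 0.0242), and it did not pass without either LcPOU5F1 clone, an array that enters only through the shared spread (adjusted p = 0.053 for each).

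Pkp3, which is widespread in epithelia, was at 2.97 and 2.96 in mOct4, 3.21 and 2.71 in LcPOU5F1, and 3.25 and 3.27 in LcPOU5F3. Its difference between LcPOU5F3 and mOct4 was 0.29, with a 95% interval from -0.23 to 0.81 (limma adjusted p = 0.345). Pkp1, a plakophilin of stratified epithelia, lay between -4.35 and -3.09 and was not well above background on any of the 6 arrays, so it was not tested.

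Jup (plakoglobin), which both desmosomes and adherens junctions contain, was at -1.18 and -1.42 in mOct4, -0.93 and -1.20 in LcPOU5F1, and -0.91 and -0.50 in LcPOU5F3. The LcPOU5F1 and mOct4 clones overlapped. LcPOU5F3 stood 0.60 above mOct4, with a 95% interval from 0.05 to 1.15, and did not pass after adjustment (limma adjusted p = 0.103). Without LcPOU5F3 clone 1 the same difference was 0.81.

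Perp was at 2.03 and 1.62 in mOct4, 3.88 and 3.14 in LcPOU5F1, and 6.41 and 7.29 in LcPOU5F3. The 3 groups did not overlap, with LcPOU5F1 between the others. LcPOU5F3 exceeded mOct4 by 5.02 ± 0.40 (limma adjusted p = 0.00572), the largest log2 difference among the 8 genes in this comparison. The p53 and p63 genes are not members, and Trp63 stayed between 1.97 and 2.29 on the 6 arrays (LcPOU5F3 against mOct4, -0.15 ± 0.16, limma adjusted p = 0.547).

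Leaving out an mOct4 clone sets 1 mOct4 array against the LcPOU5F3 clones, with the lone array assumed to vary like the other groups, which alone supply the spread. Without mOct4 clone 1 limma called 0 of the 8 members and 36 of all genes, and without the second it called 0 of 8 and 46 of all genes. The latter fit holds the arrays of slide 1, so it is the within-slide value. An unadjusted p under 0.05 was found for 6 of the 8 members in both fits, and for 3669 and 3373 of all 14595 genes. Over the fits that left out 1 array the log2 difference of Dsp ran from 3.69 to 4.24, that of Dsc2 from 4.11 to 4.62, that of Perp from 4.58 to 5.46 and that of Dsg2 from 1.09 to 1.44. Pkp2 ran from 1.53 to 2.31, Jup from 0.39 to 0.81, Pkp3 from 0.28 to 0.30 and Pkp4 from -0.95 to -0.73. All 8 kept their sign.

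With coelacanth POU5F1, none of the 8 tested desmosome genes was called different from mouse OCT4 by limma, and 3 of them, Dsg2, Dsc2 and Perp, had an unadjusted p under 0.05. Among all genes, 0.0137% were called higher and 0.0206% lower. The clones of both groups did not overlap for 4 of the 8 members, against 60.7% of all genes. The intervals leave room for differences of some size: Dsp differed by 0.07, with a 95% interval from -0.76 to 0.90, Pkp2 by 0.39 (-0.66 to 1.44), Pkp3 by 0.00 (-0.52 to 0.52) and Jup by 0.24 (-0.31 to 0.79). Perp stood 1.68 above mOct4, from 0.66 to 2.71 (limma adjusted p = 0.199), and both LcPOU5F1 clones were above both mOct4 clones. Pkp4 differed by -0.34, from -0.75 to 0.08.

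**Figure D3:**
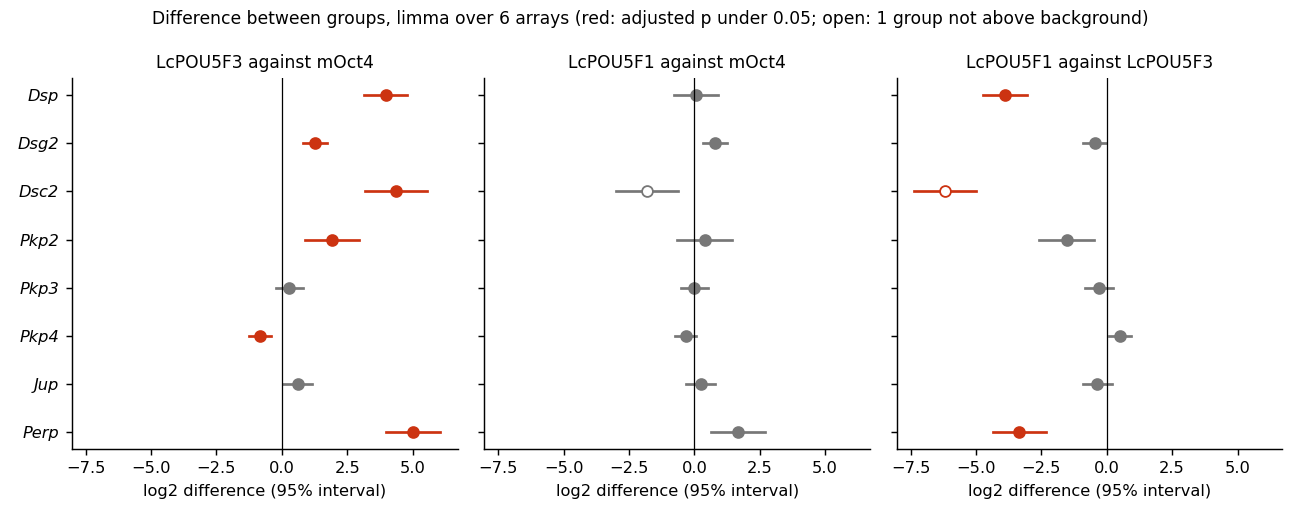
The log2 difference (x axis) of the 8 tested desmosome genes is plotted in 3 comparisons, with its 95% interval from limma; red marks an adjusted p under 0.05 and an open point a group that was not well above background. In LcPOU5F3 against mOct4 there are 5 red points to the right of 0 and 1 to the left, in LcPOU5F1 against mOct4 there is none, and in LcPOU5F1 against LcPOU5F3 there are 3, all to the left.

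Set against each other, the coelacanth paralogs differed in 3 of the 8 genes: Dsc2, Dsp and Perp were lower with LcPOU5F1 than with LcPOU5F3, and none was higher. Dsp was lower by 14.9-fold (-3.89 ± 0.33, limma adjusted p = 0.0062) and Perp by 10.1-fold (-3.34 ± 0.40, limma adjusted p = 0.0106). Among all genes, 10.6% were called higher and 9.99% lower; centring arrays on their median turned this near-even split of 1545 and 1458 genes into 501 and 1852. Clones of the 2 groups did not overlap for any of the 8 members, against 65.1% of all genes. This comparison and that of LcPOU5F3 with mOct4 share the LcPOU5F3 arrays.

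The other 5 genes did not pass. Pkp2 stood -1.53 ± 0.41 lower with LcPOU5F1 (limma adjusted p = 0.0574), Dsg2 -0.47 ± 0.18 (0.118), Jup -0.36 ± 0.22 (0.27) and Pkp3 -0.29 ± 0.20 (0.336), and Pkp4 stood 0.51 ± 0.16 higher (0.0819). Dsp, Dsc2 and Perp were also called without either mOct4 clone, but the call of Perp was lost without LcPOU5F1 clone 5. Over the fits that left out 1 array, the log2 difference of Dsp ran from -4.28 to -3.51, that of Dsc2 from -6.83 to -5.51 and that of Perp from -3.78 to -2.90. Pkp2 ran from -2.01 to -1.04 and Dsg2 from -0.64 to -0.29.

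Clones of 1 group differed in the same direction across most members. In LcPOU5F3, all 8 tested genes were higher in clone 2 than in clone 1, with a median difference of 0.46, while 44.7% of all genes were higher in clone 2. In LcPOU5F1, 7 of 8 were higher in clone 4 than in clone 5 (median 0.38, and 52.0% of all genes), the exception being Dsc2, which neither array measured above background. In mOct4, 6 of 8 were higher in clone 1 than in clone 2, with a median difference of 0.13, as were 52.6% of all genes. In LcPOU5F3 and mOct4 the shift was not particular to the members. Of 65 tested genes in the 7 related lists described below, 45 were higher in LcPOU5F3 clone 2 (median 0.245). The same count was 44 for mOct4 clone 1 (median 0.076). For LcPOU5F1 clone 4 it was 35 (median 0.096), near the share of all genes, so the lists did not share the shift of the members there. LcPOU5F3 clone 2 was also the clone with the lowest summed level of stem cell markers, 72.5 against 142 in clone 1, and its trophectoderm marker sum was 58.5 against 60.6. The part of cell composition in these clone differences was not tested.

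The DNA just before the transcription start is shown for Dsp, which rose with POU5F3, and for Pkp4, which fell, to set side by side 2 members that changed in opposite directions. The windows are the 250 bases before the start in RefSeq's GRCm38.p6 annotation, read 5′ to 3′ on the gene's strand. Capitals mark GGGCGG on either strand, the GC box bound by SP1-type factors, with overlapping copies included.
Dsp, chr13:38151044-38151293, plus strand: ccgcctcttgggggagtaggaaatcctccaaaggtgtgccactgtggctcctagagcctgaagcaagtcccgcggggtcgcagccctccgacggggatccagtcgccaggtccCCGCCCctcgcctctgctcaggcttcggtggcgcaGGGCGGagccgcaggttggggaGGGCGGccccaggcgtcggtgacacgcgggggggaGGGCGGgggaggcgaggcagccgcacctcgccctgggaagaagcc
Pkp4, chr2:59160600-59160849, plus strand: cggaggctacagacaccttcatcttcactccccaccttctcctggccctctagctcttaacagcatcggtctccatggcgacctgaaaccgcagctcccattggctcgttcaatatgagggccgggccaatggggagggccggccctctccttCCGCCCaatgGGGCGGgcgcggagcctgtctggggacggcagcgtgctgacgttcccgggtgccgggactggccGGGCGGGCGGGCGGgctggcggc

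The Dsp window held 4 GC boxes and the Pkp4 window 5, of which the 3 nearest the start overlap. GGGCGG was found in 32.7% of all 32851 windows of this length. The octamer ATGCAAAT, a sequence that POU factors bind, the grainyhead sequence AACCGGTT and the TEAD sequence GGAATG were in neither window, and were found in 1.6%, 0.12% and 12.6% of all windows. A second Pkp4 start had none of these motifs and the Jup window had 2 GC boxes. The G and C content was 72.4% for Dsp and 68.4% for the printed Pkp4 window, where the median window had 52.4%.

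Genes that work with the desmosome were counted in 7 further lists. In LcPOU5F3 against mOct4, 11.8% of all genes tested were called higher and 11.7% lower, the shares to set beside the list counts. Of 11 other desmosomal cadherins and plakins, 5 were tested, and 6, Dsg1a, Dsg1b, Dsg3, Dsg4, Dsc1 and Dsc3, did not pass the filter. The cornified-envelope plakins Ppl (periplakin, 2.53 ± 0.44) and Evpl (envoplakin, 1.97 ± 0.32) were the 2 that rose with LcPOU5F3 against mOct4 (limma adjusted p = 0.02 and 0.0172). Of 14 intermediate filament and linker genes 7 rose and none fell, with a median of 1.07. Krt8, Krt18, Krt19 and Krt7 rose by 4.33 to 6.10 on the log2 scale. Plec (plectin, a linker of filaments), Krt20 and Krt14, named after their values were seen, completed the 7. Of the keratins of stratified epithelia, Krt14 rose by 1.32 ± 0.14 (limma adjusted p = 0.00746). Krt5 and Krt17 did not pass, at 0.22 ± 0.38 and -1.45 ± 0.99 (limma adjusted p = 0.707 and 0.331). Krt7 was well above background in 1 of the 2 mOct4 clones and Krt20 in neither. Both passed the filter on dim probes only through LcPOU5F3, where they were high, so they do not support the count of 7.

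Hemidesmosomes, which anchor keratins to the matrix below the cell, had 5 tested genes, of which 4 rose with LcPOU5F3. Among them were the integrin Itgb4 (2.83 ± 0.25), its partner Itga6 (1.08 ± 0.22) and the tetraspanin Cd151 (1.85 ± 0.26), with limma adjusted p between 0.00626 and 0.0277 for these 3. The adherens junction, the actin-linked junction of the same cells, was mixed: of 13 tested genes 5 rose and 1 fell. Vcl (vinculin, 1.90 ± 0.29), Cdh1 (E-cadherin, 2.01 ± 0.39) and Ctnnd1 (p120-catenin, 0.82 ± 0.16) rose and Nectin1 fell by 0.86. Cdh2 and Ctnnd2, named after their values were seen, completed the 5. Ctnnd2 passed the filter on dim probes only through LcPOU5F3, so it does not support that count. Ctnnb1 (beta-catenin), the close relative of plakoglobin, differed by -0.23 ± 0.15 and did not pass (limma adjusted p = 0.294).

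Perp belongs to the family of PMP22, small membrane proteins with 4 membrane-spanning segments. Of its 6 relatives on the list 4 rose with LcPOU5F3: Pmp22 (4.93 ± 0.49), Emp1 (2.63 ± 0.44), Emp2 (1.37 ± 0.24) and Tmem47 (1.11 ± 0.18), with limma adjusted p between 0.00713 and 0.0205. Of 12 genes for assembly and shedding of desmosomes 4 rose, Egfr (3.56 ± 0.33), Flot1 (1.49 ± 0.14), Flot2 (1.31 ± 0.14) and Adam15 (1.22 ± 0.15), and none fell. Of 10 tested regulators of epithelial junction genes 2 rose, a count near the share of all genes. They were the splicing factor Esrp2 (2.24 ± 0.27, limma adjusted p = 0.0101) and Grhl2 (2.58 ± 0.66, limma adjusted p = 0.0476). Grhl2, a grainyhead factor of epithelia, was at -0.13 and -0.34 in mOct4, 2.00 and -0.07 in LcPOU5F1, and 2.43 and 2.27 in LcPOU5F3, so LcPOU5F1 clone 4 lay near LcPOU5F3 and clone 5 near mOct4.

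These list calls also needed both mOct4 clones. Without either of them, limma called 2 of the 14 filament genes and none of the tested genes of the other 6 lists in LcPOU5F3 against mOct4. Against mOct4, LcPOU5F1 had no call in any of the 7 lists, while 2 of all genes were called higher and 3 lower. With median centring 1 filament gene was called lower, and with only the 4 arrays compared 1 was called higher. The counts of all genes were 7 and 99 with quantile scaling, 47 and 702 with median centring, and 175 and 354 with only the 4 arrays compared. In LcPOU5F1 against LcPOU5F3, 9.99% of all genes were called lower and 10.6% higher. There limma called lower 6 of 14 filament genes, 4 of 5 hemidesmosome genes, 4 of 12 assembly genes and 3 of 6 PMP22 relatives. It called lower 2 of 5 plakins and cadherins and, near the share of all genes, 2 of 13 adherens genes and 1 of 10 regulators. It called higher 3 adherens genes (Nectin1, Cdh3 and Nectin3) and 1 assembly gene (Atp2c1). With arrays centred on their median, none of these 4 was called higher, and the counts of lower genes were 5 of 13 for adherens genes and 4 of 10 for regulators. Leaving out either mOct4 clone changed these counts of lower genes to 5 for filaments, 3 for assembly, 1 for hemidesmosomes, 1 for PMP22 relatives and 0 for the other 3 lists, with 1 adherens gene higher.

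**Figure D4:**
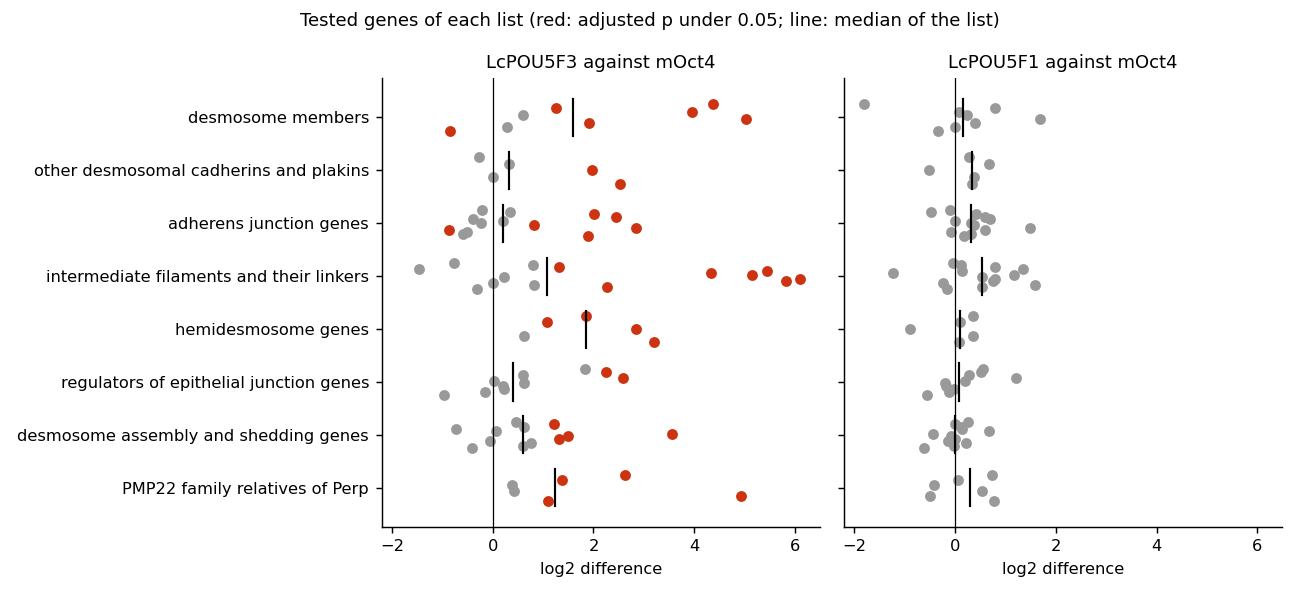
Each point is 1 tested gene of a list (y axis), placed by its log2 difference (x axis) for LcPOU5F3 against mOct4 and LcPOU5F1 against mOct4; red marks an adjusted p under 0.05 by limma and a line the median of the list. The comparisons share the mOct4 arrays. The right-hand panel has no red point, and in the left-hand panel the values above 5 are those of filament genes and of Perp.

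Beyond the lists, the genes whose profile lay closest to that of Dsp were sought among 11241 genes well above background on all 6 arrays. Likeness was the root mean square difference between mean-centred log2 values over 6 arrays. The 5 closest were Tpm2 (a tropomyosin, 0.198), Crybg1 (0.199), Ahnak (0.203), Egfr (the epidermal growth factor receptor, 0.233) and Phlda1 (0.235). Egfr, for example, was at -1.44 and -1.76 in mOct4, -1.71 and -2.36 in LcPOU5F1, and 1.63 and 2.29 in LcPOU5F3. Among the members, Perp was nearest to Dsp (0.682, with 1.35% of the 14595 tested genes closer), then Pkp2 (1.05, 3.82%) and Dsc2 (1.16, 5.12%), whose distance includes LcPOU5F1 signals that were not well above background. Dsg2 (11.3% of genes closer), Jup (17.3%) and Pkp3 (22.7%) were farther, and Pkp4 was the farthest, with 80.5% of genes closer to Dsp than it was. The 6 points of each profile share arrays and group means, so closeness is a description.

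**Figure D5:**
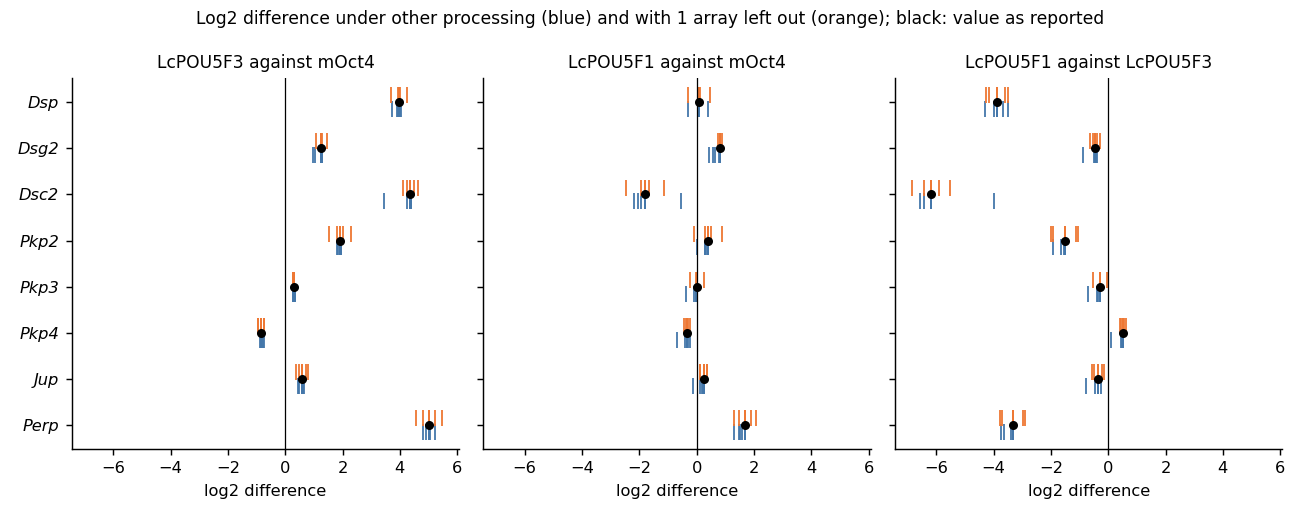
For each tested desmosome gene (y axis) the log2 difference (x axis) is drawn as reported (black), under each other processing (blue) and with 1 array left out (orange). In LcPOU5F3 against mOct4 and LcPOU5F1 against LcPOU5F3 every mark stays on its gene's side of 0, and in LcPOU5F1 against mOct4 the marks of Dsp, Pkp2, Pkp3 and Jup reach both sides.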

How the data were processed

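RNA from 6 clones was labelled with Cy3 and hybridised to 1-colour Agilent arrays. Per the file headers, the deposited processed intensity came from Agilent Feature Extraction 11.0.1.1 (protocol GE1_1100_Jul11, array design on mm9), which subtracts background and detrends within an array. Other columns per the file headers were flags for signal well above background, saturation and outlying spots.

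Control and outlier-flagged spots were left out, log2 signals were centred on each array's 75th percentile, and replicate spots were averaged. Probes were kept when well above background on both arrays of 1 group. Accessions were named through RefSeq (GRCm38.p6), and each gene took its brightest kept probe. Group means were fitted over 6 arrays with limma 3.58.1 (R 4.3.3; 3 residual and 5.16 moderated degrees of freedom), with Benjamini-Hochberg adjustment over 14595 genes and a threshold of 0.05. In data simulated for LcPOU5F3 against mOct4 over 14595 genes, the fit recovered 16.4%, 70.1% and 84.8% of changes of 1, 2 and 4 on the log2 scale. Far fewer genes were changed there than the 3436 called in the data. The adjustment depends on the share of changed genes, so these rates do not give the recovery in the data. The members and lists were chosen with earlier results of these data known. Other genes were named by a rule: per list and comparison up to 4 called genes by smallest p, Cdh1, Ctnnb1, Krt8, Krt18, Trp63 and Grhl2 always, and the 5 genes most like Dsp, leaving out clone and predicted-gene names.

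Alternatives were normexp (offset 50, on median spot intensity), quantile and median scaling, other filters and probe rules, an intensity trend, only the 4 arrays compared, the deposited series matrix intensity, the slide, clone number as a replicate block, and leaving out 1 array at a time.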

Additional observations from a re-analysis of the deposited data

How the results depend on the processing

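Over the processing alternatives the 8 members kept the sign of their log2 difference in LcPOU5F3 against mOct4 and in LcPOU5F1 against LcPOU5F3. In LcPOU5F1 against mOct4, median centring, which moves the median of all genes there from 0.10 to -0.27, gave -0.30 for Dsp and -0.13 for Jup and called 1 member, Dsc2 (-2.18). With 1 array left out, the difference in that comparison ran from -0.32 to 0.46 for Dsp, from -0.09 to 0.87 for Pkp2 and from -0.25 to 0.25 for Pkp3. Leaving out 1 array gave 0 to 7 members called in LcPOU5F3 against mOct4 (36 to 5070 of all genes), 0 in LcPOU5F1 against mOct4 (0 to 529) and 2 to 5 in LcPOU5F1 against LcPOU5F3 (446 to 5853). Within slide 1, which leaves out mOct4 clone 2, the counts of all genes in that order were 46, 0 and 496, and 0 members were called against mOct4. Without the filter they were 1544, 0 and 965, and with only the 4 arrays compared 2202, 529 and 496. In LcPOU5F1 against mOct4, where 5 genes were called and 2280 had an unadjusted p under 0.05, normexp called 13 (2 higher), quantile scaling 106 (7 higher), median centring 749 (47 higher), the intensity trend 29, and the stricter filter and every kept probe 0. Pkp2 in LcPOU5F1 against LcPOU5F3 passed under 5 of 11 processing alternatives, and Pkp4 in LcPOU5F3 against mOct4 under 7 of 12. With clone number as a replicate block, limma called 0 members and 0 genes in LcPOU5F3 against mOct4 (3.10 moderated degrees of freedom; 6 members had an unadjusted p under 0.05). The numbers name separately picked colonies and do not pair the clones; the correlation of same-numbered deviations was -0.10. Dim signal limits Pkp1, the second Dsp probe and Dsc2 in LcPOU5F1.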

Other observations

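Of the 65 tested genes in the 7 lists, 35 were higher in LcPOU5F1 clone 4 than in clone 5, and the single genes differed in both directions. Clone 4 stood above clone 5 for Esrp1, a splicing factor of epithelia (1.70 and -0.48), Grhl1 (0.97 and -0.86), Ppl (0.47 and -0.87), Cdh1 (3.45 and 2.33) and Krt17 (3.17 and 1.59), and below it for Vim (3.79 and 5.07), Zeb1, a repressor of epithelial genes (-0.38 and 0.76), and Cdh2, N-cadherin (-0.61 and 0.38). Other genes of the same lists were level or went the other way: Grhl3 was at 3.01 and 3.07, Cdh3 at 0.780 and 1.099, and Snai1, also a repressor of epithelial genes, at -0.71 and -1.06. The genes were picked after their values were seen, and 2 clones allow no test of a difference between them. In LcPOU5F3, Vim also differed between the clones, at 3.44 in clone 1 and 5.12 in clone 2, as did Cdh2 at 1.01 and 2.47, although clone 2 was the one with the higher desmosome genes there.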
